A study of Homo sapiens with 6 samples.

Results

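The nuclear genes of mitochondrial oxidative phosphorylation were examined in MDA-MB-231 cells, an established triple-negative breast cancer line labelled as basal, after depletion of the zinc finger transcription factor ZNF148. Rows of the expression table were taken as members when 1 of their gene symbols began with NDUF, UQCR, ATP5 or COX followed by a digit from 4 to 8, or was SDHA, SDHB, SDHC, SDHD or CYC1. This rule used names only and found 95 of 24108 rows. They comprised 76 nuclear subunits of complexes I to V, 5 assembly factors, 8 paralogues of subunits, 3 pseudogenes and 3 other genes. Cells of the control group (shCtr, 3 samples) carried a lentiviral LKO short hairpin against luciferase, and cells of the knockdown group (shZNF148, 3 samples) carried a lentiviral hairpin against ZNF148. Both groups were transduced for 48 h and kept for 24 h in 0.5 µg/ml puromycin before total RNA was sequenced, so that both had been infected and selected. Each group rests on 1 hairpin. Nothing in the labels says that the replicates were separate cultures, and p-values then measure only the spread between these samples, which may be technical.

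Oxidative phosphorylation passes electrons from NADH through complex I, or from succinate through complex II, to ubiquinone, then through complex III and cytochrome c to complex IV, where oxygen is reduced. Complexes I, III and IV pump protons across the inner mitochondrial membrane, and complex V (ATP synthase) uses the returning protons to make ATP. Core subunits carry the redox centres and catalysis, whereas accessory subunits build and stabilise the complexes. Most subunits are encoded in the nucleus and imported. A small set is encoded in mitochondrial DNA, and those subunits were not analysed here. In breast cancer cells the pathway runs beside glycolysis and also supplies the aspartate and oxidised cofactors that growth needs.

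Values were FPKM (sequenced fragments divided by transcript length and by the mapped total of the library), a unit that allows levels of different genes to be compared. The number of reads behind them is unknown, summed FPKM per sample ranged from 469594 to 507312, and the steps between low values placed the depth of the samples between 0.806 and 1.13 of that of shCtr replicate 1. ZNF148 was at 3.72, 4.36 and 4.30 FPKM in the shCtr replicates and at 0.914, 0.282 and 0.834 FPKM in the shZNF148 replicates, which fits the labels (log2 fold change -1.63, SE 0.18, adjusted p = 0.0099). Of the markers of this line, VIM (1772 FPKM in shCtr) and CD44 (588 FPKM) were high and ESR1 was listed at 0 in all 6 samples, while 3 markers listed as low or absent were not: KRT8 was at 158 FPKM and EPCAM at 10.6 FPKM in shCtr, and the row joining ERBB2 with MIR4728 was near 20 to 25 FPKM in 4 samples and at 126 and 125 FPKM in replicate 2 of either group. CD44 (429 FPKM, adjusted p = 0.0185) and AXL (345 to 281 FPKM, adjusted p = 0.0364) fell in shZNF148. Leukocyte, endothelial and hepatocyte markers were near 0.

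Oxidative phosphorylation transcripts moved little when ZNF148 was depleted. Of the 87 members with a mean of at least 1 FPKM, which were the members tested, 5 fell at an adjusted p under 0.05 and 0 rose. The 4 described here were the complex II flavoprotein SDHA, the complex I subunits NDUFA7 and NDUFV1, and the complex IV subunit COX7C, with losses of between 20.8% and 31.7%. Over all 11777 tested rows, 8.13% passed in the lower direction and 5.46% in the higher direction. When a change of more than 1.5-fold was also required, 0 members passed in either direction, where 3.66% of all rows were lower and 1.83% were higher. An unadjusted p under 0.05 was reached by 15 of the 87 members (17.2%), compared with 33.8% of all tested rows. In bulk samples, fewer cells of a kind and less RNA per cell cannot be told apart.

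The median log2 fold change of the 76 subunits was -0.05, with quartiles of -0.14 and 0.02, against a median of 0.01 over all tested rows. The subunits spanned -0.55 (SDHA) to 0.23 (NDUFB1). A total of 49 subunits were lower and 27 higher in shZNF148, whether or not they passed the test. The 95% interval of the change lay within 1.5-fold for 73 of the 76 subunits (96.1%), compared with 68.4% of all tested rows and 77.3% of other rows in the same range of levels. The exceptions were SDHA, NDUFA7 and NDUFB1. NDUFB1, NDUFB2 and NDUFB3 are named here because of their values, UQCRB as the parent gene of UQCRBP1 and ATP5L2 as a row listed at 0. NDUFA5, NDUFA9, NDUFA10, ATP5L and the row of ATP5E are named because they hold a short word matched by the hairpin. All other members were named by rule. The shCtr and shZNF148 values did not overlap for 20 members that were lower, a share close to the 21.0% of all rows, and for 2 members that were higher (NDUFB2 and the assembly factor NDUFAF1), where all rows gave 20%. The 8 members that were not tested were all paralogues, 4 with low values and 4 listed at 0 in all samples (COX4I2, COX6A2, COX8C and ATP5L2). Of the other members, 4 of the 5 assembly factors were higher, and the 3 pseudogenes and the 3 other genes were lower, none of them past the adjusted p. Highly expressed rows as a whole leaned downwards. The 35 subunits at 100 FPKM or more had a median of -0.03 with 1 past the adjusted p, and the 772 other rows at that level had a median of -0.08 with 109 lower past it. The 33 subunits at 30 to 100 FPKM had a median of -0.05 with 4 lower past it (12.1%). The 2199 other rows at that level had a median of -0.02 with 234 lower past it (10.6%).

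The 5 calls depended on which libraries were used. With any of the 3 shCtr replicates left out, 0 members passed in the lower direction, and the adjusted p of the 4 genes ran from 0.0585 to 0.120. Leaving out shZNF148 replicate 1 left SDHA alone, leaving out shZNF148 replicate 3 left COX7C, NDUFV1 and SDHA, and leaving out shZNF148 replicate 2 left all 5 with UQCRBP1 added and NDUFB3 higher. Counts over all rows fell in the same fits, from 957 lower to 26, 219 and 40 without shCtr replicates 1, 2 and 3. The counts of higher rows fell from 643 to 3, 93 and 7 in the same order. These 4 genes stayed lower in each of these fits.

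**Figure D1:**
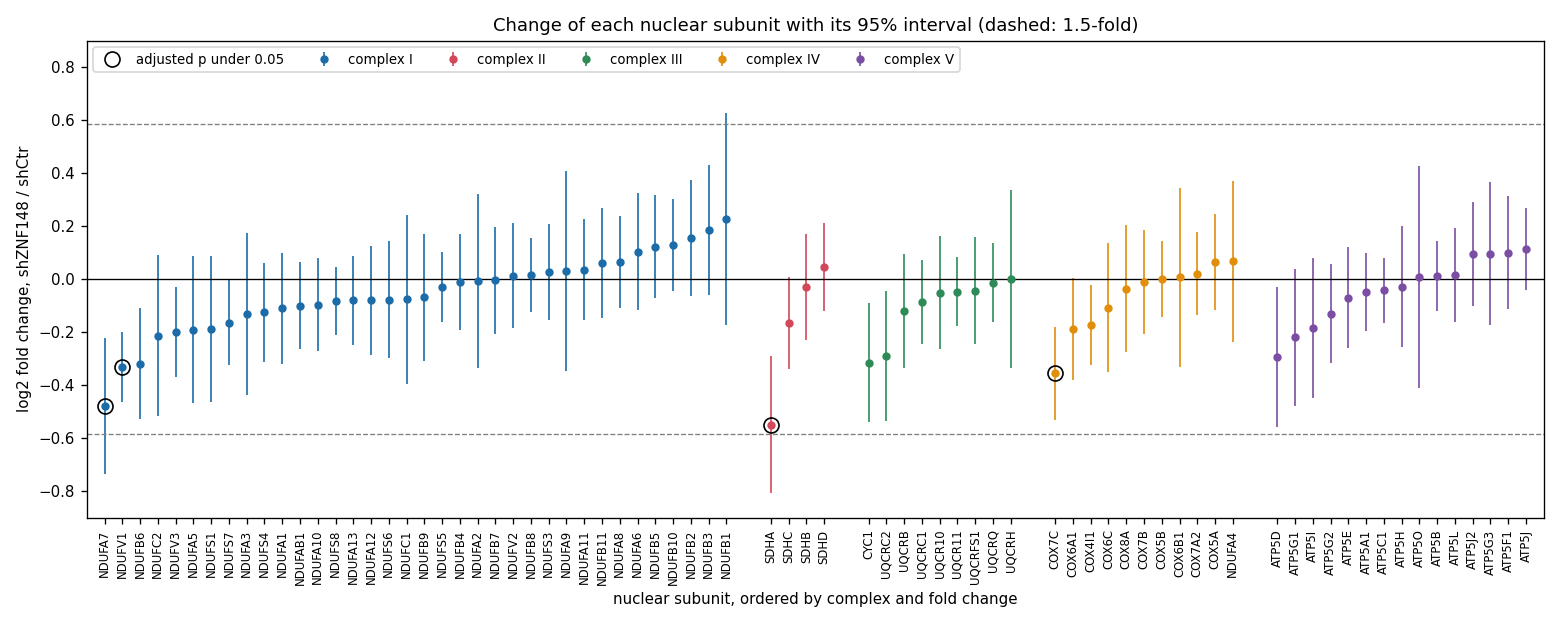
Log2 fold change of 75 of the 76 nuclear subunits (shZNF148 over shCtr, y axis) with its 95% interval, ordered along the x axis by complex and by size of change. Black rings mark the 4 drawn subunits past an adjusted p of 0.05, dashed lines mark 1.5-fold, and only SDHA, NDUFA7 and NDUFB1 have intervals that reach beyond those lines.

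**Figure D2:**
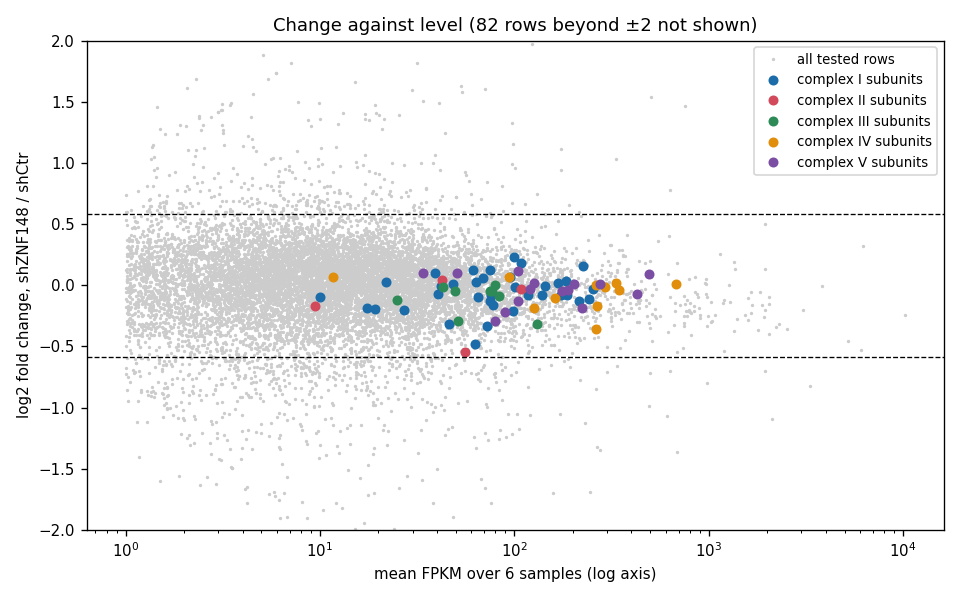
Log2 fold change (shZNF148 over shCtr, y axis) against the mean FPKM of the 6 samples (log x axis) for all tested rows (grey) and for 75 of the subunits, coloured by complex. These subunits lie between -0.55 and 0.23 while the grey rows spread much further.

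Complex II (succinate dehydrogenase) links the tricarboxylic acid cycle to the respiratory chain and held the member with the largest loss. SDHA carries the flavin that oxidises succinate and lies at chr5:218320-257082 on the plus strand of GRCh38, with 15 exons. Its FPKM was 65.4, 67.7 and 64.5 in the shCtr replicates and 50.5, 37.8 and 46.7 in the shZNF148 replicates. All shZNF148 values lay below all shCtr values, and replicate 2 was the lowest. The mean fell from 65.9 ± 1.65 to 45.0 ± 6.55 FPKM (SD, n = 3 each), which is 31.7% lower (log2 fold change -0.55, SE 0.11, adjusted p = 0.0279). Without shZNF148 replicate 1 its log2 fold change was -0.64 and it passed the 1.5-fold requirement as well. SDHA has pseudogenes that could share its reads. SDHAP1, SDHAP2 and SDHAP3 were at 2.01 FPKM or less in every sample.

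The partners of SDHA did not follow it past the test. SDHB, which holds the iron-sulphur clusters, was at 109 ± 7.76 FPKM in shCtr and 107 ± 8.61 FPKM in shZNF148 (log2 fold change -0.03, adjusted p = 0.834). The membrane anchor SDHC was at 10.4, 9.71 and 9.93 FPKM in shCtr and at 8.95, 9.12 and 8.35 FPKM in shZNF148. Its groups did not overlap, but the adjusted p was 0.163 (log2 fold change -0.17). The other anchor, SDHD, was at 41.9 ± 1.99 and 43.3 ± 2.37 FPKM (log2 fold change 0.05, adjusted p = 0.667). On the log2 scale the interval of the change was -0.81 to -0.29 for SDHA and -0.34 to 0.008 for SDHC, which overlapped. It was -0.23 to 0.17 for SDHB and -0.12 to 0.21 for SDHD. A difference between the subunits in their changes was not tested.

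A hairpin can also lower transcripts other than its target through short matches in their 3' untranslated regions. The listed target of the ZNF148 hairpin is shown because SDHA, but none of NDUFA7, NDUFV1 and COX7C, holds the word that bases 2 to 8 of its guide strand would pair with (capitals, TAAATGA). SDHA holds it once, at base 251 of a 662-base 3' untranslated region, and the window lies at chr5:256660-256689 on the plus strand of GRCh38. COX4I1, a subunit that did not pass the test, holds it at 2 places and is shown for comparison, at chr16:85806970-85806999 and chr16:85807021-85807050 on the plus strand.
shZNF148 target: cccttggtgaatgTAAATGAt
SDHA: taaataaaataTAAATGAacaaactttctt
COX4I1, first: accactgctaaTAAATGAccagtttacctg
COX4I1, second: ttaatgataccTAAATGAaagctaattaaa
The word occurred in the 3' untranslated region of 9 of 84 tested members with one (10.7%) and of 22.5% of 11062 tested rows. The members had a median length of 198 bases and all rows one of 1320.5 bases. COX4I1 was at 281 ± 8.30 FPKM in shCtr and 249 ± 13.2 FPKM in shZNF148 (log2 fold change -0.17, adjusted p = 0.110), with groups that did not overlap. The other holders did not pass the test. With 3 places each, NDUFA9 was at a log2 fold change of 0.03 and the row joining ATP5E with SLMO2 at -0.07. NDUFA5, with 2 places, was at -0.19. With 1 place each, NDUFA10 was at -0.10, UQCRB at -0.12, COX7B at -0.01 and ATP5L at 0.01. The part of such matches in any change was not tested.

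Complex I (NADH dehydrogenase) had 37 nuclear subunits, of which 24 were lower and 13 higher. Their median was -0.076 (-0.015 after quantile normalization). Past the adjusted p 3 fell, a share of 8.11% that is close to the 8.13% of all tested rows. NDUFV1, a core subunit that binds NADH and the flavin, lies at chr11:67606936-67612554 on the plus strand, with 10 exons. It was at 83.3, 79.6 and 80.2 FPKM in shCtr and at 62.4, 64.4 and 65.8 FPKM in shZNF148. The groups were wide apart for their spread (log2 fold change -0.33, SE 0.06, adjusted p = 0.0201), and the fitted interval was -0.46 to -0.20.

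NDUFA7, an accessory subunit, showed the largest loss within complex I. It lies at chr19:8311284-8321375 on the minus strand, with 4 exons. Its FPKM was 71.8, 81.8 and 66.9 in shCtr and 57.2, 54.0 and 46.3 in shZNF148. The groups did not overlap, with means of 73.5 ± 7.58 and 52.5 ± 5.60 FPKM (log2 fold change -0.48, SE 0.11, adjusted p = 0.0362). Of the 7 core nuclear subunits, 5 were lower with groups that did not overlap and the median was -0.16, compared with a median of -0.05 for the 30 accessory subunits, of which 4 were lower and apart. Over all rows the share lower and apart was 21.0%, and the difference between core and accessory subunits was not tested. NDUFS5, the highest complex I transcript, was at 257 ± 3.93 FPKM in shCtr and 252 ± 9.15 FPKM in shZNF148 (log2 fold change -0.03, adjusted p = 0.731). NDUFB2, an accessory subunit of the membrane arm, was at 227, 187 and 231 FPKM in shCtr and 237, 246 and 232 FPKM in shZNF148, so that the nearest values of the groups were 231 and 232 FPKM (log2 fold change 0.16, adjusted p = 0.277). NDUFAF1, an assembly factor, was at 6.96, 8.24 and 6.70 FPKM in shCtr and 8.98, 9.85 and 9.95 FPKM in shZNF148. Those groups did not overlap either, and the adjusted p was 0.0564 (log2 fold change 0.36). After a correction for transcript length and GC content, NDUFAF1 passed as higher.

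**Figure D3:**
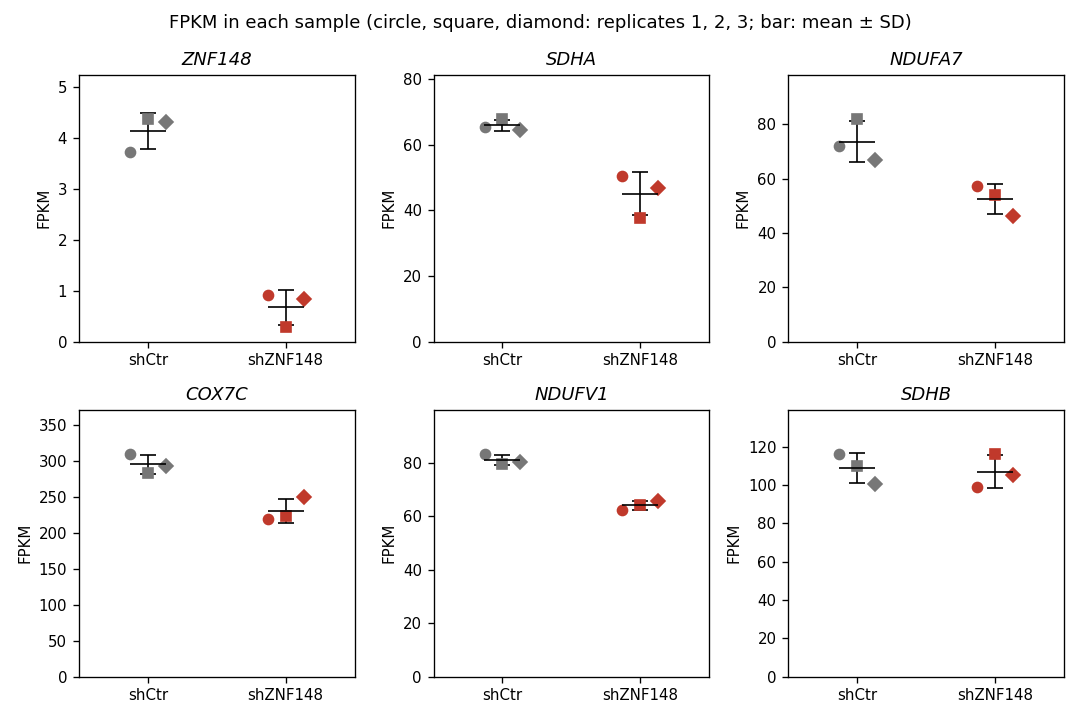
FPKM of ZNF148, of 4 fallen members and of SDHB in each sample (circles, squares and diamonds for replicates 1, 2 and 3; bars for the mean ± SD of 3), with shCtr and shZNF148 side by side in each panel. In SDHA, NDUFA7, NDUFV1 and COX7C every shZNF148 value lies below every shCtr value, and in SDHB the groups overlap.

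Complex III (cytochrome bc1) passes electrons from ubiquinol to cytochrome c. Of its 9 nuclear subunits, 8 were lower and 1 was higher, with a median of -0.05 (-0.01 after quantile normalization), and 0 passed the adjusted p. CYC1, the haem-bearing cytochrome c1, came nearest. It was at 147, 141 and 148 FPKM in shCtr and at 129, 121 and 102 FPKM in shZNF148, with groups that did not overlap (log2 fold change -0.31, SE 0.09, adjusted p = 0.0688). UQCRBP1, a processed pseudogene of UQCRB, was at 34.0 ± 3.54 FPKM in shCtr and 24.2 ± 6.38 FPKM in shZNF148 (log2 fold change -0.50, adjusted p = 0.109). UQCRB itself was at 26.1 ± 1.65 and 24.0 ± 2.24 FPKM. Both rows can share reads, so neither value is certain. Without shZNF148 replicate 2, UQCRBP1 passed with a log2 fold change of -0.69 (adjusted p = 0.0262).

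Complex IV (cytochrome c oxidase) held COX7C, a small accessory subunit in the membrane, as its only fallen member. COX7C lies at chr5:86617941-86620962 on the plus strand, with 3 exons. Its FPKM was 310, 283 and 293 in shCtr and 219, 223 and 250 in shZNF148, with no overlap. The mean fell by 21.8% to 231 ± 16.8 FPKM (log2 fold change -0.36, SE 0.07, adjusted p = 0.0307). Quantile normalization moved its adjusted p to 0.0696. The median over the 11 nuclear subunits was -0.01, with 6 lower and 5 higher, and it was 0.05 after quantile normalization and 0.01 after the length and GC correction.

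Several complex IV subunits exist as paralogues with tissue preference, and the ubiquitous form had the higher value throughout in these cells. A 0 here need not mean that a gene is silent, because all 7 rows of MRPS18B, a mitochondrial ribosomal gene that cells in general use, were also listed at 0 in all samples. COX6B1, the highest of all subunits, was at 677 ± 133 FPKM in shCtr and 673 ± 49.1 FPKM in shZNF148. Its testis form COX6B2 stayed between 0.136 and 0.423 FPKM. COX6A1 was at 134 ± 3.33 and 118 ± 11.5 FPKM (log2 fold change -0.19, adjusted p = 0.153), with the muscle form COX6A2 listed at 0 in all samples. COX7A2 was at 330 ± 8.50 and 335 ± 20.7 FPKM, whereas the muscle form COX7A1 was at most 0.191 FPKM. COX7A2L, which takes part in supercomplexes, was at 212 ± 10.2 and 190 ± 21.2 FPKM (log2 fold change -0.16, adjusted p = 0.272). COX7B was at 294 ± 20.2 and 292 ± 21.8 FPKM and COX8A at 348 ± 9.75 and 342 ± 46.5 FPKM. Of their relatives, COX7B2 was at most 0.878 FPKM and COX8C was listed at 0, as was COX4I2 beside COX4I1. NDUFA4, first assigned to complex I and now counted with complex IV, was at 11.4 ± 1.44 and 12.0 ± 1.61 FPKM, and NDUFA4L2 was at 0.217 FPKM or less. None of the higher forms named here passed the test, and the others were not tested.

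Complex V (ATP synthase) had 15 nuclear subunits, of which 8 were lower and 7 higher, and 0 passed the test. The median was -0.03, and it turned to 0.03 after quantile normalization and to 0.02 after the length and GC correction. ATP5D, the delta subunit of the F1 part, was at 99.6, 80.4 and 84.5 FPKM in shCtr and at 71.4, 79.7 and 64.1 FPKM in shZNF148. These groups were separated by less than 1 FPKM (log2 fold change -0.29, adjusted p = 0.119). The 3 genes of the proton-carrying c ring, ATP5G1, ATP5G2 and ATP5G3, encode the same mature protein with different import signals. They did not share a direction, with log2 fold changes of -0.22, -0.13 and 0.10 and adjusted p values of 0.205, 0.282 and 0.581. The row that joins ATP5J2 with PTCD1, the highest row of the complex, was at 474 ± 39.6 and 506 ± 26.5 FPKM, and its value belongs to no single gene.

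**Figure D4:**
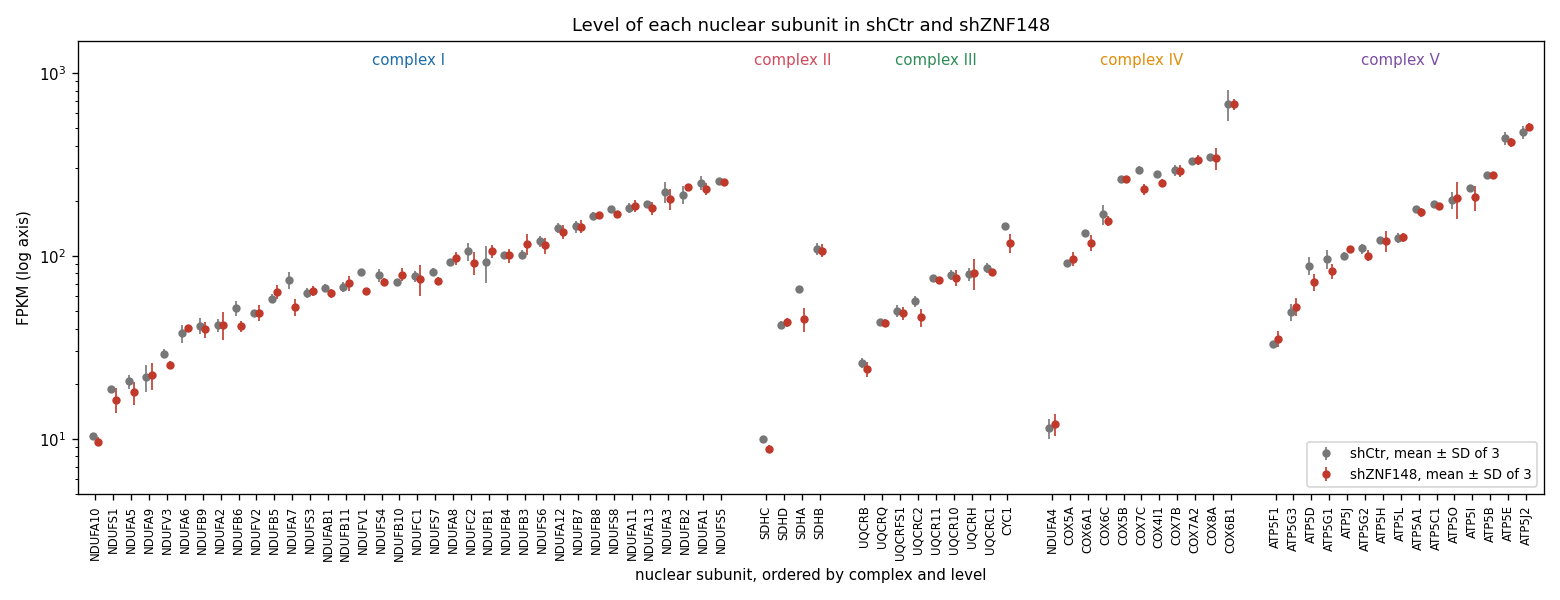
FPKM of 75 of the 76 nuclear subunits (log y axis) in shCtr and shZNF148, drawn as mean ± SD of 3 samples and ordered by complex and level. Levels run from 9.40 FPKM (SDHC) to 675 FPKM (COX6B1), and the groups lie close together at each subunit.

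Levels differed far more between subunits than between groups. Averaged over the 6 samples, the highest subunit was 71.8-fold above the lowest, and the range within a complex was 25.4-fold in complex I, 11.5-fold in complex II, 5.25-fold in complex III, 57.7-fold in complex IV and 14.4-fold in complex V. The median subunit was at 75.4 FPKM in complex I, 49.0 in complex II, 74.7 in complex III, 263 in complex IV and 126 in complex V. Summed over its subunits, complex II was at 227 ± 10.3 FPKM in shCtr and 204 ± 0.934 FPKM in shZNF148 (a difference of -10.1%), and SDHA supplied most of that difference. The difference between the sums was -2.72% for complex I, -8.07% for complex III, -4.39% for complex IV and -1.72% for complex V. The summed FPKM of all rows was itself lower in each shZNF148 sample (469594 to 488173) than in each shCtr sample (497730 to 507312). As a share of that sum, the direction turned for complex I (0.727% ± 0.0111 in shCtr and 0.742% ± 0.0160 in shZNF148), complex IV (0.576% ± 0.0136 and 0.579% ± 0.0456) and complex V (0.542% ± 0.0149 and 0.560% ± 0.0282). Complexes II (0.0452% ± 0.00175 and 0.0427% ± 0.000731) and III (0.128% ± 0.00499 and 0.123% ± 0.00632) were lower on this scale too. All 76 subunits together made up 2.02% ± 0.0204 of the summed FPKM in shCtr and 2.05% ± 0.0952 in shZNF148. The differences between these sums and shares were not tested. Rows that join subunits with other genes are inside these sums.

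Some promoters of these genes hold known words for factors that drive mitochondrial genes. RefSeq promoters of GRCh38.p14, from 250 bases before to 50 bases after each start, were matched for 62 of the 76 subunits and were searched on both strands. The NRF1-type word GCGCATGCG was in 16.1% of them, compared with 3.97% of the promoters of tested rows and 2.10% of all promoters. The ETS or GABP-type word CCGGAAG was in 30.6%, compared with 20.4% and 10.7%. The YY1-type word AAGATGGCG was in 12.9%, compared with 4.35% and 1.85%. The C-rich word CCCTCCCC, of the type ZNF148 is known to bind, was in 6.45% (4 promoters), compared with 16.3% of the promoters of tested rows and 12.8% of all promoters. None of these differences in share was tested. The NRF1-type word and its reverse complement share 8 letters, so that a single site can match on both strands.

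The promoters of SDHA, NDUFA7, COX7C and NDUFV1 were searched in the same way. SDHA and NDUFA7 held the C-rich word, NDUFA7 also held the YY1-type word, and COX7C and NDUFV1 held none of the 4 words. The windows are shown because these are fallen genes with a match, and those of SDHD and ATP5G2 because they are subunits that did not pass and hold the NRF1-type word (capitals mark the word, which in ATP5G2 reads as its reverse complement on the gene's strand). They lie at chr5:218259-218288 (plus, SDHA), chr19:8321588-8321617 and chr19:8321342-8321371 (minus, NDUFA7), chr11:112086753-112086782 (plus, SDHD) and chr12:53676105-53676134 (minus, ATP5G2).
SDHA, C-rich: cgcggtatcccCCCTCCCCcgccagctcga
NDUFA7, C-rich: gctcctctaatCCCTCCCCctgcccccaaa
NDUFA7, YY1-type: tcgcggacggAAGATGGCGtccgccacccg
SDHD, NRF1-type: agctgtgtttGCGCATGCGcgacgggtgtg
ATP5G2, NRF1-type: gcccgggtcaCGCATGCGCtgagccttcct
The C-rich word begins 50 bases before the start in SDHA and 231 bases before it in NDUFA7. It was in 4 of the 62 matched subunit promoters. The holders other than SDHA and NDUFA7 did not pass the test and are not shown. A match describes these letters and is not evidence of binding.

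Genes around the pathway were read from lists of other mitochondrial functions. Of 38 tested assembly factors of the complexes, 19 were lower and 19 higher with a median of 0.01. Past the adjusted p, 2 fell (5.26%, compared with 8.13% of all rows) and 1 rose (2.63%, compared with 5.46%). All 3 of these rows join several genes. The row of the copper chaperone SCO2 and TYMP fell from 9.07 ± 0.410 to 4.78 ± 0.214 FPKM (log2 fold change -0.80, adjusted p = 0.00931), that of ECSIT and ZNF653 fell from 24.4 ± 0.483 to 16.0 ± 1.24 FPKM (adjusted p = 0.0118), and that of ATPAF1 and KIAA0494 rose from 41.2 ± 1.69 to 54.9 ± 5.81 FPKM (adjusted p = 0.0335). CYCS, the mobile cytochrome c, was at 12.8 ± 0.837 and 12.4 ± 1.89 FPKM (adjusted p = 0.794).

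Of 17 genes of the tricarboxylic acid cycle and pyruvate dehydrogenase, 13 were lower, 9 of them with groups that did not overlap (21.0% of all tested rows were lower and apart), and the median was -0.21. SUCLG2, the beta subunit of the succinyl-CoA ligase that forms GTP, was the only one past the adjusted p (5.88%, compared with 8.13% of all rows). It fell from 27.1 ± 1.33 to 15.9 ± 0.742 FPKM (log2 fold change -0.74, SE 0.07, adjusted p = 0.00831). Of 80 tested mitochondrial ribosomal protein rows, 6 fell (7.5%, compared with 8.13% of all rows) and 2 rose (2.5%, compared with 5.46%), with a median of -0.01. MRPL14, MRPL17, MRPL2, MRPL24 and the row joining MRPS24 with URGCP had log2 fold changes of -0.27, -0.48, -0.22, -0.31 and -0.30. The pseudogene MRPL42P5 rose from 1.01 ± 0.401 to 2.21 ± 0.348 FPKM (adjusted p = 0.0494). MRPS27 fell from 40.3 ± 2.29 to 23.3 ± 6.28 FPKM (log2 fold change -0.80, adjusted p = 0.0423), and MRPL1 rose from 16.6 ± 1.31 to 24.6 ± 2.16 FPKM (log2 fold change 0.54, adjusted p = 0.0206). Of 12 proteins often used as measures of mitochondrial mass, 7 were lower and 5 higher, with a median of -0.03. The groups did not overlap for 4 that were lower (33.3%, compared with 21.0% of all tested rows) and for 1 that was higher. That was TOMM40, the outer membrane import channel, which rose (log2 fold change 0.27, adjusted p = 0.0472), and 11 did not pass. The share that rose past the adjusted p was 8.33%, compared with 5.46% of all rows. Of 10 tested regulators of mitochondrial biogenesis, 8 were higher and 2 lower, with a median of 0.05. The groups did not overlap for 4 that were higher and for 0 that were lower. Over all 11777 tested rows, 2355 were higher and apart. TFB2M, a mitochondrial transcription factor, was the only regulator past the adjusted p (10%, compared with 5.46% of all rows that rose). It rose from 8.06 ± 0.511 to 11.2 ± 1.52 FPKM (log2 fold change 0.43, adjusted p = 0.0477). NRF1 was at a log2 fold change of 0.03.

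**Figure D5:**
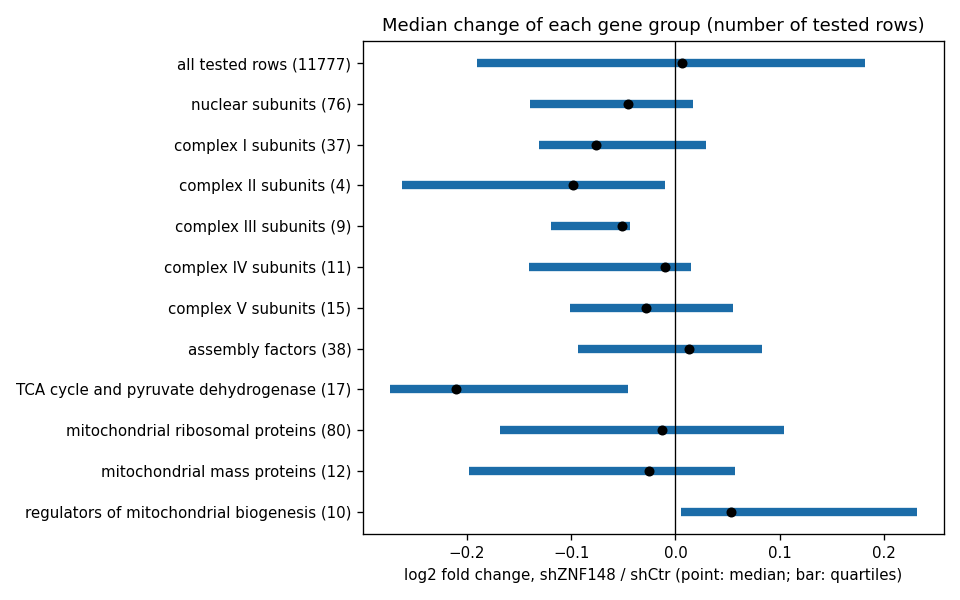
Median log2 fold change (points) and quartiles (bars) of each gene group, shZNF148 over shCtr, with the number of tested rows in brackets. The complexes lie between -0.10 and -0.01, and the tricarboxylic acid cycle group lies at -0.21. After quantile normalization complexes IV and V turn positive and complex I moves from -0.076 to -0.015.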

How the data were processed

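RNA-seq of 6 MDA-MB-231 samples was compared as 3 shCtr against 3 shZNF148 replicates, grouped from the sample labels. The deposited file gives expression in FPKM, 1 column a sample, and 0 sample columns were left out. The submitters' processing notes name bcl2fastq 2.17.1.14, TopHat2 2.0.14, Cufflinks 2.2.1 and Cuffnorm 2.2.1 and the builds hg18 and hg19, with no roles, whereas the paper's methods name Salmon, GRCh38 and DESeq2. Which program made the FPKM is not given in the sources used here. The unknown read number limits the precision of low values, and a count test was not run.

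Values were used as log2(FPKM + 1), a scale that understates changes of low genes. Of the 24108 rows, the 11777 averaging 1 FPKM or more entered a limma fit (version 3.58.1, R 4.3.3) of the condition alone, with eBayes and a mean-variance trend. Adjusted p denotes the Benjamini-Hochberg value over all of these rows. Errors are SD over 3 replicates. The smallest p of an exact two-sided permutation test in this design is 0.1, which each gene with non-overlapping groups reached. Members past an adjusted p of 0.05, the highest and the most changed non-overlapping member of each complex, the SDH genes and the paralogue groups were named by rule, as were members of other lists past that p. An item covered by this rule is not reported here and stays in the counts. The members and lists were chosen with earlier results of these data known. Gene positions and 3' untranslated regions came from GENCODE release 44 on GRCh38 and promoters from RefSeq, since the table has no coordinates. Alternatives covered the filter, pseudocount, scaling, variance trend, a replicate block, rows sharing a symbol and leaving out each replicate. A length and GC correction, and the same rows without it, were added after the data were seen. The fit was tested on simulated data with planted changes larger than that of any tested member. It therefore does not show how well changes of the members' size are called. Tables and figures were made in Python (3.11.15) using pandas 2.3.3, numpy 2.4.6 and matplotlib 3.10.9.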

Additional observations from a re-analysis of the deposited data

How the results depend on the processing

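The 5 lower members became 0 with a replicate block, 0 with a length and GC correction that included the replicate block, and between 0 and 6 with each replicate left out. With the replicate block the adjusted p of SDHA, NDUFA7, NDUFV1 and COX7C ran from 0.0555 to 0.0714, and 271 rows of the whole table were lower and 130 higher. Replicate numbers were not taken to pair the samples, since over all rows the deviations of samples with the same number correlated at 0.001, -0.088 and 0.030, although single rows such as that of ERBB2 moved together in replicate 2. The count of members that were higher, 0 as reported, was between 0 and 1 with each replicate left out and 1 (NDUFAF1) with the length and GC correction. Members past both the adjusted p and 1.5-fold in the lower direction were 0 as reported and between 0 and 1 with each replicate left out (SDHA without shZNF148 replicate 1, UQCRBP1 without shZNF148 replicate 2). The complex I median was -0.015 with quantile normalization and -0.017 with the length and GC correction, with or without the replicate block, and between -0.075 and -0.016 with each replicate left out. The complex V median was 0.027 with quantile normalization and 0.022 with the length and GC correction, with or without the replicate block, and so changed sign. Without shCtr replicate 1 the ZNF148 adjusted p was 0.0603 and without replicate 3 it was 0.0568, and the log2 fold change lay between -1.74 and -1.45. The length and GC correction gave 985 rows lower and 934 higher over the 11366 annotated rows, where the same rows without it gave 966 and 653. Members that did not pass changed sign in some fits. With quantile normalization COX7B was at 0.062, COX8A at 0.0081, NDUFS5 at 0.085 and SDHB at 0.032, and with the length and GC correction, with or without the replicate block, COX8A was at 0.022, NDUFS5 at 0.023 and SDHB at 0.0067. With each replicate left out, COX6B1 lay between -0.113 and 0.158, COX7A2 between -0.023 and 0.067, COX7B between -0.062 and 0.045, COX8A between -0.143 and 0.041, NDUFA4 between -0.014 and 0.175, and SDHB between -0.091 and 0.022. The cause of these shifts was not tested. The number of reads, and so the precision of low values, is unknown.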
